A study of Caenorhabditis elegans with 2 samples.

Results

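The genes of the intestinal brush border and of peptide uptake were followed in Caenorhabditis elegans larvae. The group holds 8 of the 46135 genes in the deposited table. They were chosen by name: ges-1, act-5, ifb-2, ifc-2, ifo-1, pept-1, erm-1 and eps-8. Of these, 7 were found under their symbol, and ifo-1 was found through its locus F42C5.10, which the table lists under the name ttm-4 and which RefSeq pairs with ifo-1.

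RNA came from whole L3 larvae of 2 kinds, with 1 library each: a strain carrying the lsm-1(tm3585) allele, backcrossed 3 times to N2, and N2 as the wild type. LSM-1 belongs to the cytoplasmic Lsm ring, which helps to decap messenger RNAs before their decay. Both populations were grown for 26 hours at 25 °C after synchronisation as L1 larvae. The number of animals is not stated, and a column header of the wild type carries the tag "back3", whose meaning is not given. With 1 library per genotype there is no replicate check. Every difference below is a difference between these 2 libraries, and fewer cells of a type cannot be told apart from less RNA per cell.

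The worm intestine is a tube of epithelial cells that take up food through a dense border of microvilli. Each microvillus holds a core of actin, which the intestine builds largely from its own actin, ACT-5. Below the microvilli lies a belt of intermediate filaments, the endotube, which supports the lumen. Membrane carriers on the microvilli bring in digested nutrients, and PEPT-1 carries short peptides together with protons. Several of these proteins also line the canal of the excretory cell, another tube with an apical actin coat.

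Levels are in FPKM, fragments scaled by transcript length and library size, so that genes can be compared with each other. Where 1 level is set against another, the mutant library comes first. Differences are log2(FPKM + 1) in the mutant minus the same in N2, a scale that understates changes of low genes. A gene was called measured with at least 1 FPKM in either library, which held for 14838 genes. The median of their differences was 0.24 (a factor of 1.18), and a centred difference has this shift taken off. The size rule asks for a difference of at least 1, that is 2-fold on this scale. The steps between low FPKM values put the depth of the mutant library at 1.22 times that of N2, or roughly 10.5 M against 8.60 M fragments. The lsm-1 transcript itself had 5.94 FPKM in the mutant library and 10.2 in N2, levels over the whole gene that need not show a partial deletion.

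All 7 measured genes of the group had a higher level in the mutant library, and 6 of them, all but ifo-1, lay above the median of measured genes. Their median difference was 0.60 against 0.24 for all measured genes and 0.26 for measured protein-coding genes. A difference above 0 was found for 64.1% of all measured genes. The levels kept the same order in both libraries, from act-5 at the top through ifb-2, erm-1, ifc-2, pept-1 and eps-8 to ifo-1. Close neighbours in that order were pept-1 (14.4 FPKM) and eps-8 (14.1) in the mutant library and ifc-2 (9.82) and pept-1 (8.45) in N2, and no spread over libraries is at hand to set them apart. By the size rule, eps-8 and ifc-2 were higher and none was lower, against 13.6% of measured genes higher and 12.2% lower. Many genes in that background are listed at 0 in 1 library, and among measured genes above 0 in both libraries 6.51% were higher by the size rule. After centring none of the 7 genes passed the rule, against 10.5% of measured genes higher. In the authors' deposited table, 6 of the 8 genes had a usable test and the same 2, eps-8 and ifc-2, were called higher. That test, which compares 1 library with 1 other, called 2.35% of 17570 usable genes higher and 1.41% lower.

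**Figure D1:**
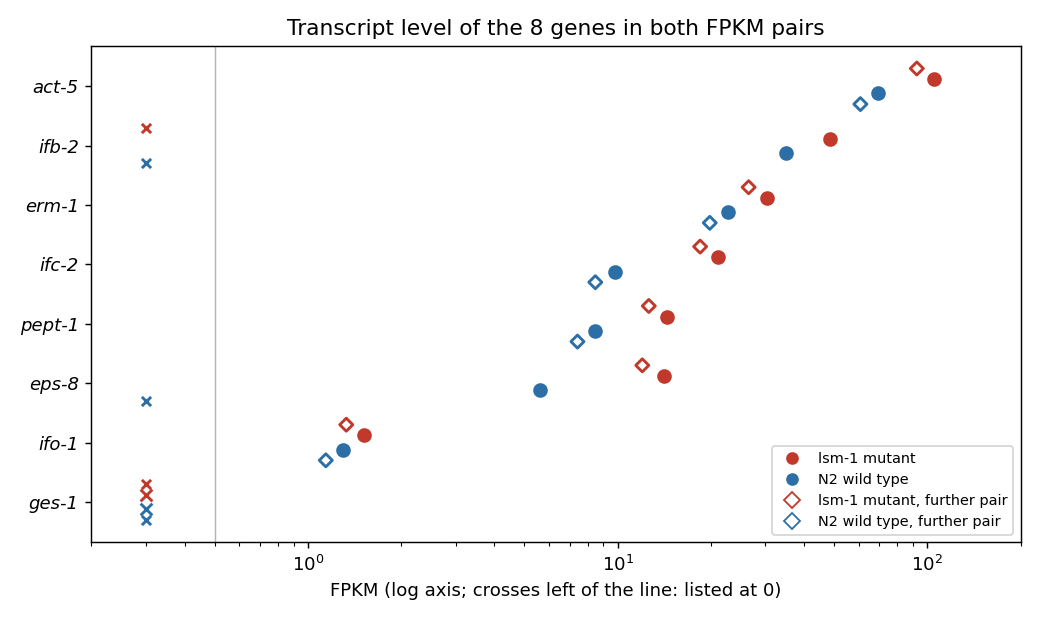
Transcript level of each of the 8 genes in FPKM (log axis) in the mutant (red) and N2 (blue) library, with filled circles for the FPKM pair beside the authors' test and open diamonds for a further deposited pair of the same libraries. Crosses left of the grey line mark values listed at 0: ges-1 in every column, ifb-2 in the further pair, and eps-8 in the N2 column of the further pair.

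The core of the microvillus was represented by act-5 (T25C8.2, chromosome III). It stood at 105 FPKM in the mutant library and 69.2 in N2, a ratio of 1.52 and a difference of 0.60, or 0.36 after centring. About 1195 and 643 fragments lay behind these levels, which gives the ratio a 95% counting interval from 1.38 to 1.68. Such intervals cover counting error, not the spread between animals. The authors' deposited table marks the test of act-5 as failed, so no call exists for the most abundant gene of the group. The further pair, at 92.5 and 60.8 FPKM, gave the same ratio of 1.52.

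The other actin genes, which serve muscle and most other cells, were also higher in the mutant library. The levels were 170 against 67.2 FPKM for act-1, 156 against 68.1 for act-3, 62.3 against 39.3 for act-2 and 36.1 against 21.0 for act-4. The ratio of act-1 was 2.53, with a counting interval from 2.32 to 2.78, which lies above the interval of act-5. In the authors' deposited table act-1 (q = 0.000322) and act-4 (q = 0.0434) were called higher. The share of act-5 in the summed actin FPKM was thus smaller in the mutant library, 19.9% against 26.1%. Actin genes have closely similar coding sequences, and how shared reads were divided among them is not given in the sources used here. The levels of single actin genes are therefore uncertain.

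The genes for a membrane linker and a tip protein of the microvillus had unequal ratios. Their counting intervals overlapped when computed from the shortest annotated transcript of each gene. erm-1 (C01G8.5, chromosome I) encodes the ezrin-radixin-moesin protein that ties actin to the apical membrane. It stood at 30.4 FPKM in the mutant library and 22.8 in N2, a ratio of 1.34 with a counting interval from 1.18 to 1.52. The lower end lies at the factor of the median gene, which was taken on the log2(FPKM + 1) scale and not from plain FPKM ratios. eps-8 (Y57G11C.24, chromosome IV) encodes an actin-capping and bundling protein of microvillus tips. It stood at 14.1 FPKM in the mutant library and 5.60 in N2, a ratio of 2.53 and the highest of the group. The difference was 1.20, or 0.96 after centring, and the authors' deposited table calls it higher (q = 0.000373). Its precision depends on which transcripts were present. The 12 annotated transcripts span 540 to 3096 bases, which puts between 52 and 431 fragments behind the mutant level and between 17 and 140 behind the N2 level. With the smaller numbers the ratio had a counting interval from 1.42 to 4.62.

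The level of eps-8 in N2 rests on 1 of the authors' 2 estimates. In the further pair eps-8 was listed at 12.02 FPKM in the mutant and at 0 in N2, and an exact 0 can be a failed estimate. Such zeros were more frequent for genes with many transcripts. Among protein-coding genes at 1 FPKM or more in both libraries, a further-pair value of 0 was found for 1.37% of 5824 genes with 1 transcript, for 6.1% of 2705 genes with 2 or 3, and for 16.3% of 866 genes with 4 or more.

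**Figure D2:**
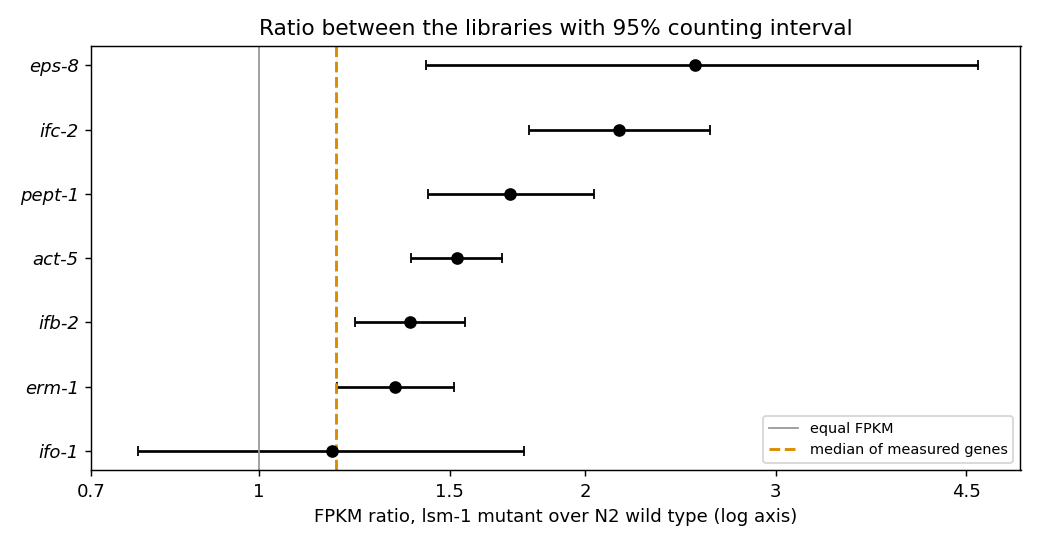
FPKM ratio of the mutant over the N2 library (log axis) for the 7 measured genes, with bars for the 95% counting interval computed from the shortest annotated transcript of each gene. The intervals of eps-8, ifc-2, pept-1, act-5 and ifb-2 lie above the dashed line, the median of measured genes at a factor of 1.18 on the log2(FPKM + 1) scale, that of erm-1 begins there, and that of ifo-1 spans equal levels.

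Other genes listed as linkers of the apical membrane and microvillus stood on the same side. Their levels come from whole larvae and need not be those of the gut. Of 7 such genes in the list, erm-1 and eps-8 included, 6 were measured and all 6 lay above the median of measured genes, with a list median of 0.79. The spectrin genes spc-1 (26.4 against 14.2 FPKM) and sma-1 (10.9 against 6.16) had ratios of 1.86 and 1.77. The plastin gene plst-1, which encodes an actin bundler, stood at 21.4 against 15.03 FPKM and chdp-1 at 26.6 against 11.5. Of this list eps-8 was called in the authors' deposited table, and chdp-1 passed the size rule, its test being marked as short of data. The scaffold gene nrfl-1 was listed at 0 in both libraries.

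The filament belt was led by ifb-2 (F10C1.7, chromosome II), which encodes a filament protein found along the whole intestine. It stood at 48.3 FPKM in the mutant library and 35.1 in N2, a ratio of 1.38 with a counting interval from 1.23 to 1.55. The difference was 0.45, or 0.21 after centring, and the gene was not called in the authors' deposited table (q = 0.457). In the further pair it was listed at 0 in both libraries, so its level too rests on 1 estimate.

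ifc-2 (M6.1, chromosome X) encodes a filament protein of the endotube and of the excretory canal. It stood at 21.1 FPKM in the mutant library and 9.82 in N2, a ratio of 2.15 with a counting interval from 1.78 to 2.61. That interval lies above the interval of ifb-2. Neither interval covers the sharing of reads among annotated transcripts, of which ifc-2 has 7 and ifb-2 has 3. The ratio of ifb-2 also has no second estimate, so whether the pair kept 1 proportion is not settled. The difference of ifc-2 was 1.03, or 0.79 after centring, and the authors' deposited table calls the gene higher (q = 0.0414). The further pair gave 18.5 and 8.47 FPKM, a ratio of 2.18.

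The remaining gut filament genes went both ways. Of the 6 in the list all were measured, 5 lay above the median of measured genes, and the list median was 0.65. ifp-1 stood at 15.3 against 6.54 FPKM, a ratio of 2.34 with an interval from 1.92 to 2.87, and passed the size rule without a call (q = 0.119 in the authors' deposited table). ifd-2 stood at 4.24 against 1.90 FPKM and ifc-1 at 10.5 against 8.13. ifd-1 alone was lower in the mutant library, at 11.09 against 12.6 FPKM, with an interval of the ratio from 0.718 to 1.08 that includes 1. As shares of the summed FPKM of the 6 genes, ifb-2 made up 43.7% in the mutant and 47.4% in N2, ifc-2 19.1% and 13.3%, ifp-1 13.8% and 8.83%, and ifd-1 10.03% and 17.0%. Among the members of this list, ifc-2, ifd-1, ifd-2 and ifp-1 lie on chromosome X, where the median difference of measured protein-coding genes above 0 in both libraries was 0.34, against 0.22 to 0.26 on the other chromosomes. Its part in the result was not tested.

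Filament genes of other tissues were higher in the mutant library as well. ifb-1, which serves the epidermis, pharynx and excretory cell, stood at 38.6 against 15.1 FPKM, a ratio of 2.55 with an interval from 2.202 to 2.95, and was called in the authors' deposited table (q = 0.000373). ifa-1 stood at 9.62 against 4.77 FPKM and ifa-4 at 7.92 against 4.28. mua-6 was listed at 7.81 FPKM in the mutant and at 0 in N2, and ifa-3 stayed under 1 FPKM in both.

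**Figure D3:**
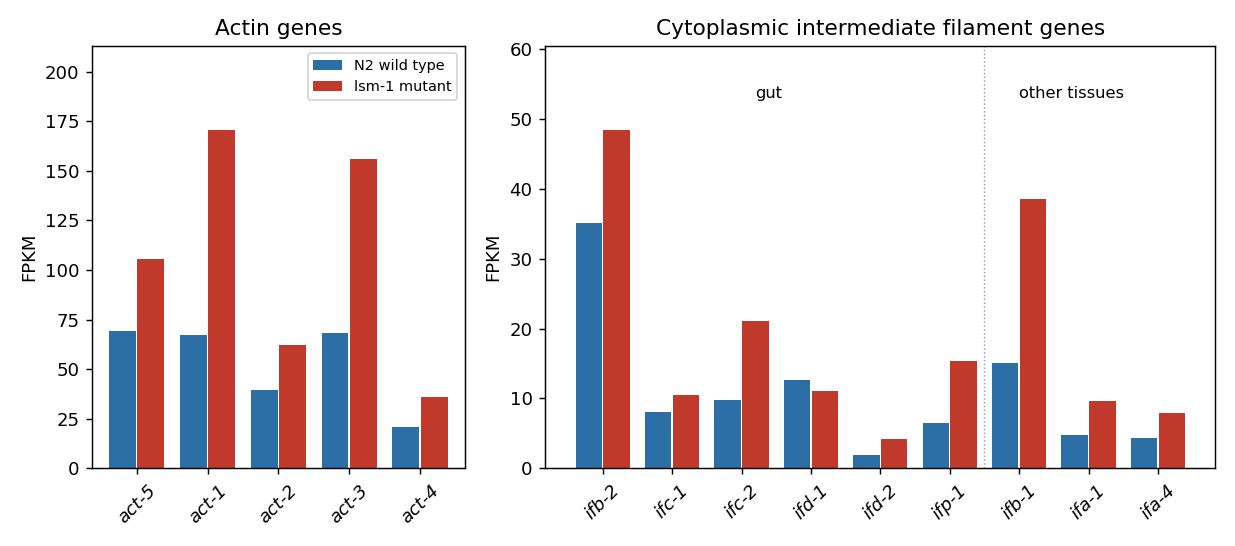
FPKM of the 5 actin genes (left) and of 9 cytoplasmic intermediate filament genes (right) in the N2 (blue) and mutant (red) library, 1 library per bar, with gut filament genes left of the dotted line. Every gene shown except ifd-1 had the higher bar in the mutant, and the taller steps of act-1, act-3 and ifb-1 stand beside the smaller ones of act-5 and ifb-2. mua-6, listed at 0 in N2, and ifa-3, under 1 FPKM in both, are not drawn.

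The genes that organise the filament belt lay at the median of measured genes. ifo-1 (F42C5.10, chromosome IV) encodes an organiser that holds filaments at the apical side of intestinal cells. It stood at 1.52 FPKM in the mutant library and 1.30 in N2, a ratio of 1.17 with an interval from 0.773 to 1.76. About 61 and 43 fragments lay behind these levels. The difference of 0.13 became -0.11 after centring, so its direction depends on the scaling. bbln-1, which encodes the filament-associated protein bublin (65.3 against 56.6 FPKM), and the kinase gene sma-5 (22.5 against 18.95 FPKM) had ratios of 1.16 and 1.19. These 3 genes had a list median of 0.21, which turned to -0.03 after centring, and none was called by either rule.

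Peptide uptake was represented by pept-1 (K04E7.2, chromosome X), the apical carrier for di- and tripeptides. It stood at 14.4 FPKM in the mutant library and 8.45 in N2, with about 394 and 189 fragments behind the levels. The ratio was 1.70 with an interval from 1.43 to 2.04, and the difference was 0.70, or 0.47 after centring. The gene was not called in the authors' deposited table (p = 0.0261, q = 0.267).

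Neither nhx-2 nor pept-3 showed this difference. nhx-2 encodes the apical sodium-proton exchanger that expels the protons brought in with peptides. It stood at 11.9 FPKM in the mutant library and 12.6 in N2, a ratio of 0.940 with an interval from 0.775 to 1.14. pept-3, which encodes another proton-coupled peptide carrier, stood at 7.19 against 7.52 FPKM, with an interval of the ratio from 0.765 to 1.21. Whole-larva RNA does not show in which tissue pept-3 was expressed, so its level need not bear on uptake in the gut. The intervals of nhx-2 and pept-3 both lie below that of pept-1. The level of pept-1 was thus 1.21 times that of nhx-2 in the mutant library and 0.669 times in N2. pept-2 stood at 1.87 against 1.14 FPKM and the proton exchanger gene pbo-4 at 7.16 against 4.62. None of these 5 genes passed the size rule or was called by the authors.

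Other carriers of the gut stood near the background. Of 17 genes, 15 were measured and their median difference was 0.24, the same as for all measured genes. That match rests in part on genes listed at 0 in 1 library, since the median was 0.105 for the 12 above 0 in both. By the size rule 2 of the 15 were higher and 2 were lower. The 2 higher genes, the folate carrier gene folt-1 (3.69 FPKM in the mutant) and the potassium channel gene kqt-2 (2.56), were listed at 0 in N2. The further pair lists kqt-2 at 2.24 FPKM in the mutant and 2.55 in N2, which turns its direction. Of the 2 lower ones, kqt-3 (2.50 FPKM in N2) was listed at 0 in the mutant. The other, the zinc transporter gene cdf-2, stood at 5.60 against 12.6 FPKM and was not called in the authors' deposited table (q = 0.174). In that table folt-1 was called higher. nac-3 stood at 7.42 against 4.55 FPKM, nac-2 at 3.49 against 5.09 and the heme carrier gene hrg-1 at 22.01 against 16.01.

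ges-1 (R12A1.4, chromosome V), the gut esterase long used as a marker of intestinal fate, was listed at 0 in all 4 FPKM columns and was not tested by the authors. It has 1 annotated transcript of 1743 bases. Of 13591 protein-coding genes with 1 transcript, 735 or 5.41% were listed at 0 in all 4 columns. Its listed value is not read as absence of expression, and no difference can be given for it.

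The enzymes of the gut lumen and lysosome lay on both sides of the median of measured genes. Of 9 genes, ges-1 included, 8 were measured, of which 3 lay above it and 5 at or below it, with a list median of 0.08, or -0.16 after centring. None passed the size rule or was called by the authors. The cathepsin B-like protease genes cpr-4 (12.7 against 22.6 FPKM), cpr-1 (15.6 against 23.5) and cpr-6 (28.4 against 35.3) were lower in the mutant library, with counting intervals of the ratio that end at 0.710, 0.825 and 0.944. The aspartyl protease genes asp-5 (31.6 against 21.8) and asp-1 (118.7 against 95.1) and the acid phosphatase gene pho-1 (10.4 against 8.03) were higher. The gut GATA factor genes elt-2 (1.41 against 2.59 FPKM) and elt-7 (3.14 against 3.95) were lower without a call, and elt-4 stayed under 1 FPKM in both libraries. About 20 and 30 fragments lay behind the levels of elt-2, with an interval of the ratio from 0.294 to 0.993. The interval of elt-7, from 0.188 to 3.56, includes 1, so its direction is not set by these counts.

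**Figure D4:**
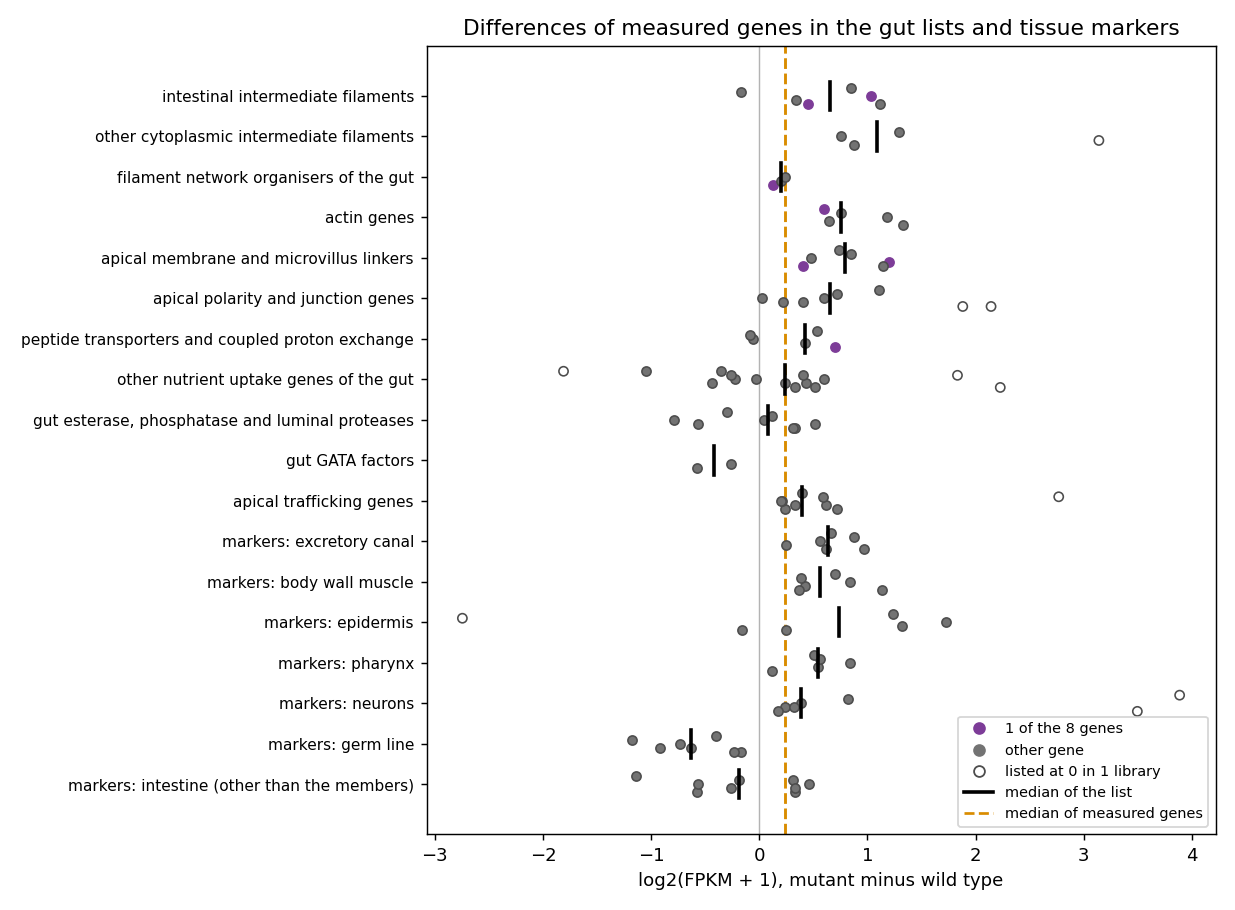
Difference in log2(FPKM + 1), mutant minus N2 library, for each measured gene (points) of 11 lists of gut and related genes and 7 tissue marker lists, with black bars for list medians and a dashed line for the median of all measured genes, 0.24. Actin, gut intermediate filament and apical membrane genes have medians right of the dashed line, from 0.65 to 0.79. The median for filament genes of other tissues is 1.09, or 0.88 for those above 0 in both libraries. The medians of the junction, peptide transporter, trafficking, excretory canal, muscle, epidermis, pharynx and neuron lists also lie right of the dashed line. The medians of gut enzymes, gut GATA factors (2 measured genes), germ line markers and gut markers outside the group lie left of it. Those of filament organisers and other nutrient carriers lie close to the dashed line, and open circles mark genes listed at 0 in 1 library.

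Cell junctions and apical traffic were followed as the surroundings of the brush border. Of 11 polarity and junction genes, 8 were measured, with a median difference of 0.66, or 0.50 for the 6 above 0 in both libraries. dlg-1, which encodes a junction scaffold, stood at 24.5 against 10.8 FPKM, a ratio of 2.26, and was called higher in the authors' deposited table (q = 0.00691). par-3 and ajm-1 were also called there, but were listed at 0 in N2 (3.42 and 2.69 FPKM in the mutant). The further pair lists par-3 at 0 in both libraries, and ajm-1 at 2.25 FPKM in the mutant and at 0 in N2. At the low end jac-1 stood at 4.06 against 3.96 FPKM and hmr-1, the cadherin gene, at 6.16 against 5.14. par-6, hmp-1 and hmp-2 were listed at 0 in both libraries. Of 9 apical trafficking genes the median difference was 0.40. The recycling genes rab-10 (38.05 against 24.4 FPKM) and rab-11.1 (76.8 against 66.8) had ratios of 1.56 and 1.15. rab-8 stood at 17.4 against 10.1 FPKM, and unc-101 at 5.81 in the mutant but at 0 in N2, with a call in the authors' deposited table.

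Since the RNA came from whole larvae, markers of each tissue were read beside these results. Of 10 entries in the list of gut markers outside the group, 9 were matched and measured. Their summed level was 642 FPKM in the mutant and 644 in N2, with spp-5 (269 against 306) as the largest part of both. Of these 9 markers, 4 lay above the median of measured genes and 5 at or below it. Their median difference was -0.18, with lys-1 (155 against 112), vha-6 (41.99 against 33.2) and pho-1 higher, and mtl-2 (26.3 against 59.0), elt-2 and cpr-1 lower. Among genes reaching 5 FPKM in 1 of the libraries that median turned to 0.32. The summed level of the 8 genes was 235.3 FPKM against 152, a ratio of 1.55, with act-5 (105 against 69.2) as the largest part.

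Of 7 excretory canal markers, 6 were measured and all 6 lay above the median of measured genes, with a median difference of 0.64 and summed levels of 97.9 against 59.7 FPKM. Among them aqp-8, which encodes a water channel of the canal, stood at 22.5 against 11.8 FPKM. The unmeasured marker, exc-1, stayed under 1 FPKM in both libraries. The lowest and highest differences of these 6 markers were those of exc-5 (6.44 against 5.27 FPKM) and ceh-6 (3.26 against 1.18).

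Markers of body wall muscle had summed levels of 764 against 562 FPKM and a median difference of 0.56, from unc-27 (174 against 135) to myo-3 (13.4 against 5.56), with 6 of 8 measured and unc-15 and lev-11 listed at 0 in both libraries. Pharynx markers had sums of 37.5 against 23.9 FPKM and a median of 0.55, from myo-2 (2.85 against 2.54) to tnc-2 (12.56 against 6.56), with 5 of 7 measured. Epidermis markers went both ways, with sums of 241 against 207 FPKM, 6 of 7 measured and vab-10 at 0 in both libraries. In the authors' deposited table elt-3 (16.6 against 6.06 FPKM) and elt-1 (8.05 against 1.73) were called higher. That table calls nhr-23 lower, which had 5.70 FPKM in N2 and a listed 0 in the mutant library. The further pair lists nhr-23 at 0 in both libraries. The epidermis median of 0.74 became 0.24 without a filter and 1.24 among genes with a usable test. Neuron markers had a median of 0.39 with 7 of 8 measured, from ida-1 (19.6 against 17.2 FPKM) to sbt-1 (13.8 in the mutant, listed at 0 in N2). rab-3 (10.3 FPKM in the mutant) and unc-10 (0.627) were also listed at 0 in N2, and sbt-1 and unc-10 were called higher in the authors' deposited table. The further pair lists rab-3 and sbt-1 at 0 in both libraries. With sbt-1, rab-3 and unc-10 the neuron sums were 118.6 against 71.1 FPKM, and without them 93.9 against 71.1. Germ line markers had sums of 35.3 against 54.4 FPKM and a median of -0.63, from glh-2 (1.02 against 3.56), called lower in that table, to pgl-1 (13.03 against 14.7), with 7 of 8 measured and mex-5 at 0 in both libraries. The part of these tissues in the levels of act-5, erm-1, ifc-2 and eps-8 was not tested. Transcript length moved slightly with the differences: the median difference of measured protein-coding genes above 0 in both libraries was 0.20 in the shortest and 0.30 in the longest of 4 length classes of equal size.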

How the data were processed

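The authors deposited 1 table with FPKM values in 2 pairs of columns, made from ribosome-depleted TruSeq libraries. Per the submitters' processing notes, TopHat, Cufflinks and Cuffdiff were used. Their versions, the genome build and the gene models are not stated in the labels or the file, and coordinates are therefore left out. The authors' deposited table also holds, for each gene, a p-value with its q-value, a score of the test and a log2 fold change. The FPKM pair beside that test was used, with the further pair as an alternative. From the deposited FPKM, differences of log2(FPKM + 1) were computed with Python 3.11.15 and pandas 2.3.3. No p-value was computed, because each genotype had 1 library.

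Depth was estimated from genes with 1 annotated transcript: the most frequent ratio of low FPKM values gave the relative depth over 3086 genes, and the spacing of values gave the total, with 190 bases taken off each length. Approximate fragments per gene use the shortest annotated transcript. Counting intervals of ratios are exact Clopper-Pearson intervals (scipy 1.17.1). The depth estimate and the differences were tested on simulated counts with a known length for each gene. That test did not cover the counting intervals or the sharing of reads among transcripts. Lengths came from Ensembl release 115 and gene classes from RefSeq, both on WBcel235, and the authors' gene models may not be the same.

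The 8 genes, and the 18 lists, were chosen with earlier results of these data known. All 8 genes are named. Of each list, up to 3 genes at each end of the measured differences and every gene called by the authors' test are named, and others where a sum or a ratio needed them. Of 135 list entries, 1 (opt-3) had no match under that name.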

Additional observations from a re-analysis of the deposited data

How the results depend on the processing

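The median difference of the measured genes of the group was 0.60. It was 0.32 when the protein-coding FPKM of the libraries were scaled to 1 sum, and it lay between 0.36 and 0.65 under the other 9 alternatives. The number of the group's genes past the size rule was 2. It became 0 with a pseudocount of 5, after centring and after scaling to the protein-coding sum. It became 1 among genes above 0 in every FPKM column, which leaves out eps-8 and ifb-2, and 4 with a size rule of 0.58. It was 2 with a pseudocount of 0.1, the further pair (where eps-8 is listed at 0 in N2), an FPKM of at least 5, no filter and usable tests. Of 33 differences of single genes under alternatives, 7 moved by more than the counting error, all 7 after centring or scaling, and ifo-1 alone went below 0, at -0.11 and -0.03. The median of the gut enzymes turned to -0.16 after centring and -0.17 after scaling, and that of the other nutrient carriers to -0.03 among genes with a usable test. No paired analysis was possible because there was 1 library per genotype, and for the same reason no library could be left out. Depth limits the ratio of ifo-1, whose counting interval includes 1.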
